A study of Leucoraja erinaceus with 6 samples.

Results

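Basic helix-loop-helix (bHLH) transcription factors were followed in dorsal root ganglia (DRG) and spinal cord of little skate (Leucoraja erinacea) embryos. The genes were taken by name: every row of the count table whose identifier starts with the symbol of a neuronal, glial, Notch-effector, Id, E-protein or mesodermal bHLH family. This gave 32 of 22087 named genes, and all 32 were matched to a symbol in a RefSeq gene table. A total of 12253 of the 22111 rows of the table carry only an identifier starting with LOC, so further family members under such identifiers are not analysed here.

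The study compared DRG with spinal cord by bulk RNA-seq to define the expression signature of each tissue. DRG, which hold the sensory neurons of the body with their glia, and spinal cord had 3 libraries each, numbered replicates 1 to 3. All came from untreated wild-type embryos at stage 32, and each library held tissue pooled from 3 to 4 embryos, so that the spread is a spread between pools. Library names carry the numbers 815, 816 and 818 for replicates 1, 2 and 3 of both tissues, read here as pool numbers.

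bHLH proteins bind E-box DNA as dimers. In the vertebrate nervous system, proneural and neuronal members drive precursors to become neurons, Hes, Her and Hey members repress them downstream of Notch, and Olig members specify progenitor domains and oligodendrocytes. E proteins are the broadly used dimer partners, and Id proteins, which lack the DNA-binding basic region, sequester them.

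Library totals were 26472152 to 27093555 counts in DRG, against 24693555 to 29080300 in spinal cord. Mitochondrial protein-coding genes took 24.3% to 35.7% of the named-gene counts of DRG libraries and 5.39% to 6.88% of those of spinal cord libraries, so levels depend on how libraries are scaled. DRG replicate 3 stood apart at 24.3%, against 33.7% and 35.7% in DRG replicates 1 and 2. Levels below are CPM, counts scaled to a common library size with TMM factors (edgeR's correction for composition). They take no account of gene length, so levels are read between tissues within 1 gene. Where CPM are summed over a list, its largest genes named or genes above a level counted, counts are ranked and not transcript numbers. With library sizes alone, the log2 ratio of DRG over spinal cord (the log2 fold change) over all genes tested had a median of -0.99 against -0.04 with TMM, and with library sizes over nuclear genes it was -0.55. Of 8 sensory neuron markers, 7 were higher in DRG, and of 8 spinal interneuron markers 7 were lower in DRG. The 6 genes listed as peripheral glia markers were split. Of these, foxd3, egr2b, s100b and pmp22b were higher in DRG (log2 ratios 1.90 to 4.47), while mpz (-3.57) and sox10 (-2.91) were lower. The mean of mpz was 31499 CPM in spinal cord, and sox10 is also on the oligodendrocyte list. Of 6 markers of proliferating cells, 3 were higher in DRG and 3 were not called. A lower level in these tissues can reflect fewer cells of a type or less RNA per cell, which cannot be told apart in bulk samples.

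Most bHLH genes that differed were lower in DRG. Of the 32, 23 had enough counts to be tested and 9 did not. By edgeR's quasi-likelihood test with Benjamini-Hochberg adjustment over all 16112 genes tested (adjusted p under 0.05), 13 of the 23 were lower in DRG and 2 were higher. Among all genes tested, 28.1% were lower in DRG and 27.8% were higher, 55.9% in all. The median log2 ratio was -1.36 for the 23 genes and -0.04 for all genes tested. Of the 13 genes lower in DRG, 8 had under 10 counts in at least 1 DRG library and passed the filter through their spinal cord counts. The number of lower genes and the median are thus in part set by which genes could be tested. A level at least 4-fold lower in DRG was called for 9 of the 23 (10% of all genes) and one at least 4-fold higher for 2 (7.58% of all genes). The 9 are neurod1 and the same 8 low-count genes, so their number is no measure of how the family compares with other genes. The same holds for the 2 higher genes, tcf15 and twist2. Each had under 10 counts in every spinal cord library and passed the filter through DRG. With library sizes alone 21 of the 23 were lower and 2 were higher (57% and 10.5% of all genes), and with library sizes over nuclear genes 17 were lower and 2 were higher (43.7% and 17.1%). Libraries of the tissues did not overlap for 17 of the 23 genes, against 65% of all genes tested. The 17 include the 8 low-count genes and the 2 higher genes, so this number too is no measure of the family.

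**Figure D1:**
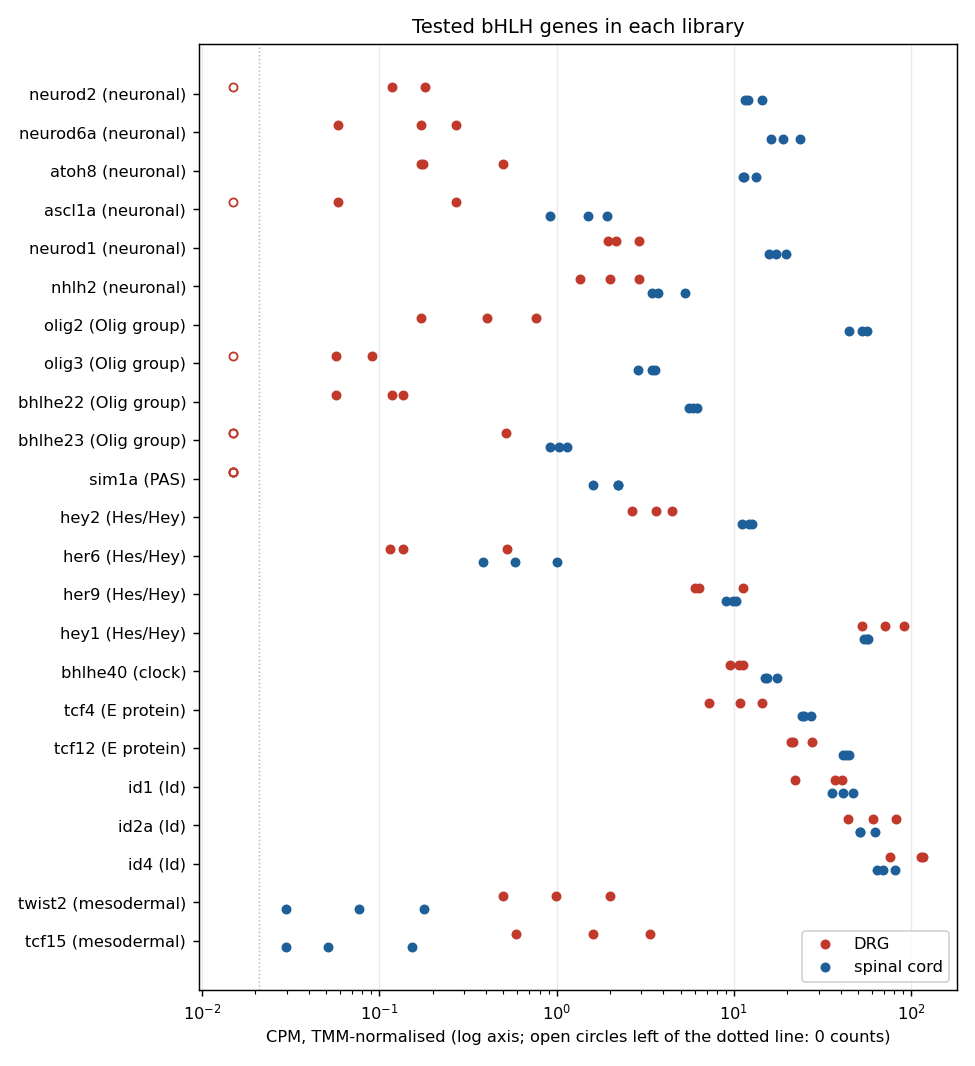
CPM of the 23 tested bHLH genes in each of 3 DRG and 3 spinal cord libraries, on a log axis, with genes grouped by role; open circles are libraries with 0 counts. The genes neurod2, neurod6a, atoh8, olig2, olig3 and bhlhe22 sit farthest apart between tissues, nhlh2 and bhlhe23 lie closer without overlap, Id genes and hey1 overlap, and twist2 and tcf15 lie higher in DRG.

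Neuronal differentiation factors were among the genes furthest apart. Of 9 such genes, 6 were tested and 5 of these were lower in DRG, against 28.1% of all genes. Of the 5, neurod2, neurod6a, atoh8 and ascl1a passed the filter through spinal cord, so the count is no measure of the class. In mouse, neurod2 and neurod6 are factors of maturing neurons, best known from excitatory neurons of the forebrain. Levels of neurod6a were 0.172, 0.0586 and 0.271 CPM in DRG replicates 1, 2 and 3, against 23.4, 16.1 and 19.0 CPM in spinal cord replicates 1, 2 and 3. Its log2 ratio was -6.77 ± 0.40 SE (adjusted p = 9.35e-06), which became -7.36 without DRG replicate 3. Every spinal cord library was far above every DRG library, where neurod6a had 3, 1 and 6 counts. The ratio of summed counts relative to library size, spinal cord over DRG, was 111, with a 95% exact interval of 60.5 to 233 that covers counting error only.

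The related neurod2 was at 0, 0.117 and 0.181 CPM in DRG (0, 2 and 4 counts) and at 12, 14.3 and 11.5 CPM in spinal cord. The same ratio was 118 (54.2 to 323; adjusted p = 3.47e-05). The fitted log2 ratio of -6.85 ± 0.54 SE became -7.68 without DRG replicate 3. DRG was thus at or near the level of 3 counts, which is 0.136 to 0.176 CPM there.

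For neurod1, which acts early in neuronal differentiation downstream of neurogenins, DRG kept a measurable level. Values were 2.17, 2.93 and 1.94 CPM in DRG, against 19.6, 17.2 and 15.7 CPM in spinal cord, a log2 ratio of -2.90 ± 0.24 SE (adjusted p = 3.99e-05). No DRG library reached a spinal cord library, yet all DRG libraries held at least 38 counts.

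The atonal relative atoh8 was at 0.172, 0.176 and 0.497 CPM in DRG and at 11.2, 13.3 and 11.4 CPM in spinal cord (log2 ratio -5.33 ± 0.42 SE, adjusted p = 3.45e-05, -6.08 without DRG replicate 3). The ratio of its summed counts was 39.7 (24.7 to 68.3). Its 3 spinal cord libraries were close together, and DRG replicate 3 was the highest of the DRG libraries. The proneural gene ascl1a, known for dorsal interneuron progenitors, was low in both tissues, with 0, 1 and 6 counts in DRG, against 76, 51 and 36 counts in spinal cord. It was lower in DRG, with a log2 ratio of -3.58 ± 0.86 SE (adjusted p = 0.00815) that became -5.46 without DRG replicate 3, the library with 6 of the 7 counts. The ratio of its summed counts was 11.8 (5.58 to 29.7).

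The neuronal gene nhlh2, found in early postmitotic neurons, differed least in this class. It had 2.92, 1.99 and 1.36 CPM in DRG, against 5.32, 3.46 and 3.74 CPM in spinal cord. The groups did not overlap, but the difference did not pass (log2 ratio -1.0 ± 0.38 SE, adjusted p = 0.0533); with the pool number as a replicate block the adjusted p was 0.0468. It also passed in DESeq2's test (adjusted p = 0.0292), in limma voom (adjusted p = 0.0384) and without DRG replicate 1 (-1.33, adjusted p = 0.0296). The ratio of nhlh2 to neurod1 counts within a library, which needs no scaling, was 0.907 ± 0.377 in DRG, against 0.237 ± 0.0345 in spinal cord (mean ± SD of 3 libraries), with DRG replicate 1 highest at 1.34. Every DRG library was above every spinal cord library in this ratio, which was chosen after the levels were seen and was not tested. The ratio is not separate from the lower level of neurod1 in DRG.

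Proneural genes that specify neuron types in other vertebrates were near 0. The neurogenin neurog1, which in mouse starts sensory neuron formation in the ganglia, had 0 counts in all 3 DRG libraries, which allows up to 0.136 to 0.176 CPM, and 4, 0 and 3 counts in spinal cord. For atoh1a, a gene of the dorsal-most spinal interneurons in mouse, there were 2, 3 and 0 counts in DRG, against 1, 1 and 2 in spinal cord. For ptf1a, which in mouse sets the inhibitory fate of dorsal interneurons, there were 0 counts in DRG, against 3, 0 and 0 in spinal cord. No difference was detectable at this depth for these 3 genes, which were not tested. Beside the neuronal genes, the 7 spinal interneuron markers that were lower in DRG summed to 4.06 to 6.55 CPM in DRG, against 511 to 570.3 CPM in spinal cord. The eighth, tlx3b, was higher in DRG, at 182 to 207 CPM, against 16.8 to 17.3 CPM in spinal cord. The part of these cells in the differences above was not tested.

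Of 4 Olig-group genes tested, 3 were lower in DRG, against 28.1% of all genes, and the other was not called. All 3 had under 10 counts in at least 1 DRG library and passed the filter through spinal cord, so this count too is no measure of the group. The gene olig2, which in other vertebrates marks progenitors of motor neurons and oligodendrocytes, had 0.172, 0.762 and 0.407 CPM in DRG (3, 13 and 9 counts) and 56.2, 52.8 and 44.7 CPM in spinal cord. This was a log2 ratio of -6.84 ± 0.35 SE (edgeR adjusted p = 5.04e-06), and the ratio of summed counts, spinal cord over DRG, was 116 (95% exact interval 78.5 to 179). The other genes of the oligodendrocyte list went the same way in 4 of 5 cases, with myrf at -6.56, plp1a at -4.01, sox10 at -2.91 and mbpa at -1.95, while pdgfra was higher in DRG (1.19). The summed level of that list, olig2 included, was 1553 to 2815 CPM in DRG, against 8701 to 8815 CPM in spinal cord; most of it came from mbpa, which Schwann cells also make. Without mbpa the sum was 64.7 to 72.3 CPM in DRG, against 704 to 771 CPM in spinal cord. That sum still held sox10, also on the peripheral glia list, at a mean of 43.5 CPM in DRG, against 326 CPM in spinal cord. Of 6 motor neuron markers, 4 were lower in DRG (chata -6.90, mnx1 -6.84, lhx3 -6.62 and slc18a3a -6.10). The other 2, isl1a (3.13) and isl2a (4.27), were higher, and isl1a is also on the sensory neuron list. Summed, the motor neuron list was at 150 to 192 CPM in DRG, against 130 to 187 CPM in spinal cord. Different genes carried the sum in each tissue, so it is no measure of motor neurons. In DRG these were isl1a (mean 98.1 CPM, against 11.2 CPM in spinal cord) and isl2a (68.8 against 3.55 CPM). In spinal cord they were chata (mean 73.5 CPM, against 0.602 CPM in DRG) and slc18a3a (66.2 against 0.92 CPM). The part of the oligodendrocyte and motor neuron lineages in the olig2 difference was not tested.

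Dorsal spinal members of the group were close to the count floor in DRG. For olig3, a gene of dorsal progenitors, the levels were 0.0572, 0 and 0.0904 CPM in DRG, against 3.56, 3.46 and 2.89 CPM in spinal cord. The ratio of summed counts, spinal cord over DRG, was 62.3 (95% exact interval 21.2 to 304; adjusted p = 0.000156), and the fitted log2 ratio of -5.87 ± 0.64 SE became -6.65 without DRG replicate 3. For bhlhe22, which in mouse is needed for inhibitory interneurons of the dorsal horn, the levels were 0.0572, 0.117 and 0.136 CPM in DRG, against 5.90, 6.16 and 5.58 CPM in spinal cord. Its ratio of summed counts was 55.4 (95% exact interval 25.3 to 152), with a fitted log2 ratio of -5.75 ± 0.42 SE (adjusted p = 2.45e-05). Each gene had at most 3 counts in each DRG library and at least 113 in every spinal cord library. Of 8 tested markers of neural progenitors and radial glia, 7 were lower in DRG and fabp7b was not called. Without fabp7b, which carried nearly all of the list's summed level (1039 to 2963 CPM in DRG, against 1707 to 2190 CPM in spinal cord), the other 8 of the list summed to 13.3 to 25.4 CPM in DRG, against 144 to 147 CPM in spinal cord. Its part in the differences of ascl1a, olig2, olig3 and the Notch-effector genes was not tested.

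The paralog bhlhe23 was not called (log2 ratio -2.61 ± 1.11 SE, adjusted p = 0.0765). DRG replicate 1 held all 9 of its DRG counts, and spinal cord held 45, 31 and 40 counts. Without DRG replicate 1 it was lower in DRG at an adjusted p of 0.00265; DRG was then at 0 counts, so that fit gives no size. It also passed in limma voom (adjusted p = 0.00952).

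Among PAS-domain bHLH genes, sim1a, a marker of V3 spinal interneurons in mouse, had 0 counts in every DRG library and 1.60, 2.22 and 2.23 CPM in spinal cord. Against a floor of 3 counts per library its level in DRG was lower by at least 11.5-fold (adjusted p = 0.000421). The other gene, sim2, had at most 1 count in any library.

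**Figure D2:**
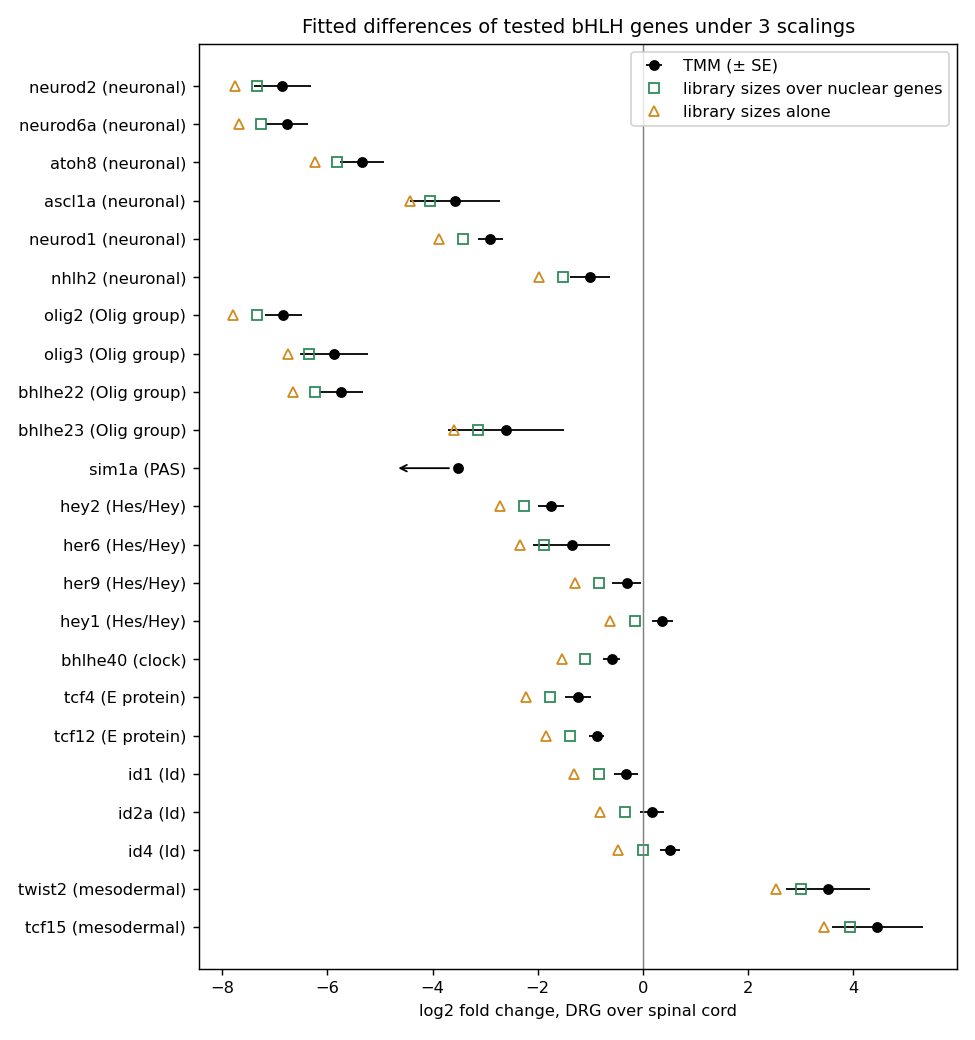
Log2 ratio (fold change, DRG over spinal cord) for the 23 tested bHLH genes with TMM (points, ± SE), with library sizes over nuclear genes (squares) and with library sizes alone (triangles); sim1a is drawn at its bound with an arrow. The neuronal and Olig-group genes stay below 0 under each scaling and twist2 and tcf15 above 0, while hey1, id2a and id4 lie on either side of 0.

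Of the Notch-effector type repressors, only hey2 passed the test. Of 4 tested genes, 1 was lower in DRG and 0 were higher by edgeR, against 28.1% and 27.8% of all genes. The count is thus no measure of the class. Likewise 0 were higher at an unadjusted p under 0.05, by DESeq2 or by limma voom. None of the hes symbols sought matched a named gene. The repressor hey1 had 70.9, 91.5 and 52.7 CPM in DRG, against 57, 55.9 and 53.9 CPM in spinal cord (log2 ratio 0.37 ± 0.20 SE, adjusted p = 0.151). The tissues overlapped and DRG varied more. Its direction depended on scaling: the log2 ratio was -0.62 with library sizes alone (lower in DRG, adjusted p = 0.0134) and -0.16 with library sizes over nuclear genes. Without DRG replicate 3 it passed as higher in DRG (0.53, adjusted p = 0.0157).

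The paralog hey2 was lower in DRG, with 4.46, 3.64 and 2.67 CPM against 12.6, 12.2 and 11.1 CPM in spinal cord (log2 ratio -1.74 ± 0.25 SE, adjusted p = 0.000591). All DRG libraries lay below all spinal cord libraries. The ratio of hey2 to hey1 counts is free of scaling. It was 0.0511 ± 0.0116 in DRG, against 0.215 ± 0.00789 in spinal cord (mean ± SD of 3 libraries). This ratio was not tested and is not separate from the lower level of hey2.

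For her9 and her6, names given to Hes-type repressors in zebrafish, no difference passed. Levels of her9 were 6.35, 11.2 and 6.06 CPM in DRG, against 10.3, 9.06 and 9.88 CPM in spinal cord (log2 ratio -0.31 ± 0.27 SE, adjusted p = 0.367). DRG replicate 2 stood above the other DRG libraries, and without it her9 was lower in DRG (-0.66, adjusted p = 0.0266), as it was with library sizes over nuclear genes (-0.83, adjusted p = 0.0267). Counts of her6 were 2, 9 and 3 in DRG, against 23, 13 and 39 in spinal cord (-1.36 ± 0.73 SE, adjusted p = 0.147; -2.36 and adjusted p = 0.0343 without DRG replicate 2). DRG replicate 2 was thus the high library for hey1, her6 and her9 alike.

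Among the other genes of the Notch pathway, 10 of 20 tested were called (50%), against 55.9% of all genes. They came from a list of 40 symbols. The receptor and Delta ligand symbols on it matched no named gene, so those genes are not analysed here. In DRG 8 were lower and 2 were higher, and the median log2 ratio of the 20 was -0.14. The fringe gene lfng, whose enzyme modifies Notch receptors, fell furthest, at 2.39 ± 1.54 CPM in DRG, against 72.3 ± 7.85 CPM in spinal cord (mean ± SD of 3 libraries; log2 ratio -4.94 ± 0.39 SE, adjusted p = 3.63e-05, -5.60 without DRG replicate 2). The fringe rfng (-0.83), the ligand jag1b (-1.05), the coactivators maml1 (-1.0) and maml3 (-1.28), the protease subunit psen2 (-0.86), the ubiquitin ligase mib1 (-0.70) and the glycosyltransferase poglut1 (-0.47) were lower too. For poglut1 the call did not hold with the replicate block (adjusted p = 0.0905), with DESeq2 size factors (adjusted p = 0.0614) and in 5 of 6 fits that left out 1 library (adjusted p up to 0.176).

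The ligand jag2b was higher in DRG, with 27.2 ± 8.03 CPM against 7.04 ± 0.403 CPM in spinal cord (mean ± SD of 3 libraries; log2 ratio 1.95 ± 0.23 SE, adjusted p = 0.000205). It stayed higher with library sizes alone (1.04, adjusted p = 0.0138). The protease gene adam17b was higher with TMM (0.60, adjusted p = 0.00567) but was at 0.09 with library sizes over nuclear genes and at -0.36 with library sizes alone (adjusted p = 0.618 and 0.107). The Jagged genes thus lay on opposite sides, jag2b higher and jag1b lower in DRG.

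Both E-protein genes found by name, the general dimer partners, were lower in DRG, against 28.1% of all genes tested. None of the 3 Id genes found, their inhibitors, passed the test, while 55.9% of all genes were called. The symbols tcf3 and id3 were also sought but matched no named gene, so both groups may be incomplete. Whether the groups differ from each other was not tested. Levels of tcf12 were 21.4, 27.6 and 21.1 CPM in DRG, against 44.6, 41.3 and 43.0 CPM in spinal cord (log2 ratio -0.88 ± 0.15 SE, adjusted p = 0.00143). Levels of tcf4 were 14.4, 10.8 and 7.23 CPM in DRG, against 24.3, 27.0 and 24.7 CPM in spinal cord (-1.23 ± 0.24 SE, adjusted p = 0.00313). For each, the highest DRG library was below the lowest spinal cord library.

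For each Id gene the tissues overlapped. At an unadjusted p under 0.05 id4 passed; DESeq2 called 1 of the 3 and limma voom called 0. Levels of id1 were 37.3, 40.5 and 22 CPM in DRG, against 47.0, 41.4 and 35.9 CPM in spinal cord (log2 ratio -0.32 ± 0.23 SE, adjusted p = 0.277), and it was lower in DRG with library sizes over nuclear genes (-0.84, adjusted p = 0.00973). Levels of id2a were 60.8, 82.1 and 44.1 CPM in DRG, against 62.2, 51.5 and 51.6 CPM in spinal cord (0.18 ± 0.22 SE, adjusted p = 0.53), with -0.34 under library sizes over nuclear genes and -0.81 under library sizes alone (adjusted p = 0.185 and 0.00601). DRG replicate 3 was lowest and DRG replicate 2 highest for id1 and id2a.

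For id4, a late-acting Id gene of neural precursors and glia, the levels were 116, 113 and 75.8 CPM in DRG, against 80.6, 63.9 and 69.6 CPM in spinal cord. It came nearest to the threshold of the 3, with a log2 ratio of 0.51 ± 0.19 SE (adjusted p = 0.0508), and the call depended on the processing. It passed with DESeq2 size factors (adjusted p = 0.0459), in DESeq2's own test (adjusted p = 0.0364) and without DRG replicate 3 (0.68, adjusted p = 0.00444). With library sizes alone it was lower in DRG (-0.47, adjusted p = 0.0408), and with library sizes over nuclear genes it was at -0.0065.

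Ratios within a library remove the scale. Summed counts of id1, id2a and id4 over summed counts of tcf4 and tcf12 were 6.0, 6.15 and 5.02 in DRG replicates 1, 2 and 3 and 2.75, 2.30 and 2.32 in spinal cord replicates 1, 2 and 3. Every DRG library was above every spinal cord library, and the mean ratio was 2.33 times as large in DRG (5.72 ± 0.614 against 2.46 ± 0.258, mean ± SD of 3 libraries). Taken gene by gene, 5 of the 6 Id to E-protein ratios did not overlap between tissues. The ratio of id1 to tcf12 did, at 1.05 to 1.74 in DRG, against 0.835 to 1.05 in spinal cord. By level, 65% of all genes tested did not overlap, and no such share was computed for ratios. The 6 ratios reuse the same few genes, and both E-protein genes were lower in DRG without overlap. The number is thus no measure of the groups. Among the Id genes, id4 over id1 was 3.12 ± 0.321 in DRG, against 1.73 ± 0.198 in spinal cord (mean ± SD of 3 libraries). These ratios were chosen after the levels were seen and are given without a test.

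**Figure D3:**
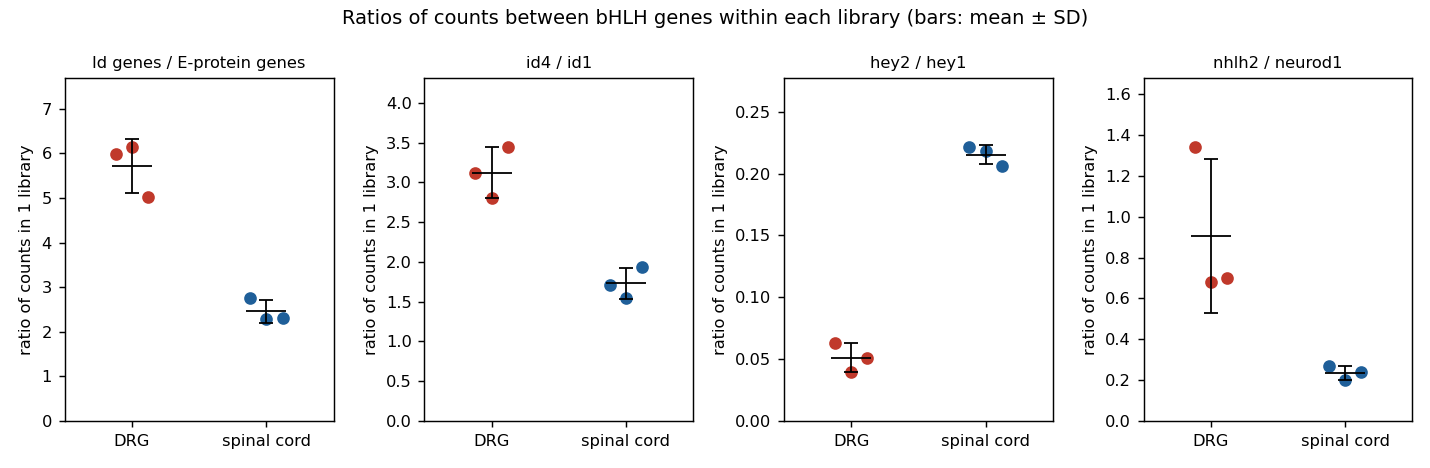
Ratios of counts between bHLH genes within each library, for 3 DRG and 3 spinal cord libraries (points; bars are the mean ± SD), on axes that start at 0. Id over E-protein counts, id4 over id1 and nhlh2 over neurod1 were higher in every DRG library, and hey2 over hey1 was lower in every DRG library.

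The clock-linked repressor bhlhe40 was lower in DRG by a small step, with 9.55, 10.7 and 11.3 CPM against 15.0, 15.3 and 17.5 CPM in spinal cord (log2 ratio -0.60 ± 0.17 SE, adjusted p = 0.0154). The groups did not overlap, but without spinal cord replicate 3 the adjusted p was 0.0771. Its paralog bhlhe41 had at most 4 counts in any library.

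The genes higher in DRG were both mesodermal factors and both low. Both had at most 7 counts in any spinal cord library and passed the filter through DRG, so their number is no measure of the class. The gene tcf15, known from somites, had 28, 57 and 13 counts in DRG (1.60, 3.34 and 0.588 CPM) and 6, 1 and 2 counts in spinal cord (0.153, 0.0296 and 0.0512 CPM). Its log2 ratio was 4.46 ± 0.87 SE (adjusted p = 0.00298), 3.71 without DRG replicate 2 and 5.33 without spinal cord replicate 1. The gene twist2, known from dermis and other mesenchyme, had 35, 17 and 11 counts in DRG (2.00, 0.997 and 0.497 CPM) and 7, 1 and 3 counts in spinal cord (0.178, 0.0296 and 0.0768 CPM). Its log2 ratio was 3.53 ± 0.80 SE (adjusted p = 0.00617), 2.88 without DRG replicate 1 and 4.30 without spinal cord replicate 1. Tissues did not overlap for either gene, and DRG replicate 3 was the lowest DRG library for both.

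Markers of other tissues were set beside these genes. Of 4 connective tissue markers, 3 were higher in DRG and 1 was lower, and summed they reached 2343, 3453 and 1411 CPM in DRG (replicates 1, 2 and 3), against 118 to 151 CPM in spinal cord. Of 4 skeletal muscle markers, 1 of 2 tested was higher in DRG, and the 4 summed to 19.8, 41.4 and 12.6 CPM in DRG (replicates 1, 2 and 3), against 8.50 to 13 CPM in spinal cord; the muscle bHLH gene myod1 had 1, 9 and 0 counts in DRG, against 0 in spinal cord. Of 4 blood markers, 3 were higher in DRG and 1 was lower, and summed they reached 127, 149 and 72.1 CPM in DRG (replicates 1, 2 and 3), against 19.3 to 21.2 CPM in spinal cord. Of 4 endothelium markers, 1 was higher in DRG, 2 were lower and 1 was not called. Summed they reached 57.9, 49.2 and 36.0 CPM in DRG (replicates 1, 2 and 3), against 88.2 to 117 CPM in spinal cord. DRG libraries took the same order for tcf15 as for the connective tissue, muscle and blood sums. That order also held for hey1, id1, id2a and fabp7b, so it is not particular to these genes and lists. In the blood sum it came from ptprc, at 11.7, 67.0 and 13.5 CPM in DRG replicates 1, 2 and 3. The blood markers lmo2 and rhag were highest in replicate 1. The endothelium sum and twist2 were highest in replicate 1. The part of these cells in the differences of tcf15 and twist2 was not tested. The other genes grouped with these were not tested and had at most 14 counts in any library: tcf21 of visceral mesoderm, hand2 of heart and sympathetic neurons, bhlha15 of secretory cells and figla of oocytes.

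**Figure D4:**
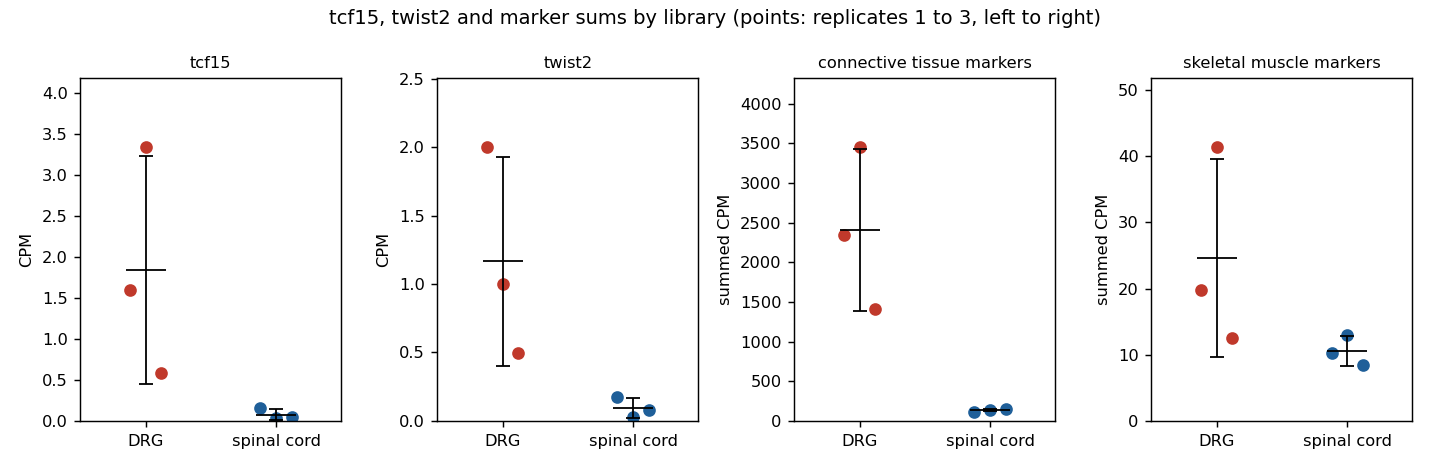
CPM of tcf15 and twist2 and summed CPM of 4 connective tissue and 4 skeletal muscle markers in 3 DRG and 3 spinal cord libraries (points, replicates 1 to 3 from left to right; bars are the mean ± SD). Both bHLH genes and the connective tissue sum are higher in every DRG library, and DRG replicate 2 is highest for tcf15 and both marker sums.

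The wider bHLH superfamily, outside the families above, held genes lower and genes higher in DRG. Of 53 symbols listed, 23 genes were matched and 18 tested; 11 (61.1%, against 28.1% of all genes tested) were lower in DRG and 3 (16.7%, against 27.8%) were higher. The median log2 ratio was -1.06, against -0.04 for all genes tested. The hypoxia and PAS partner arnt2 was at 27.5 ± 7.82 CPM in DRG, against 80.6 ± 5.78 CPM in spinal cord (mean ± SD of 3 libraries; log2 ratio -1.55 ± 0.22 SE, adjusted p = 0.000521). The sterol regulator srebf1 was at -1.46, the growth regulator mycn at -1.26 and the Max-binding factors mxd4, mxi1, mnta and mgaa at -1.18, -1.16, -1.12 and -1.03, while the hypoxia factor epas1b was at -1.08. Each was lower in DRG, with 0.0169 as the highest adjusted p, but epas1b lost the call without spinal cord replicate 1 (adjusted p = 0.056) and mnta without spinal cord replicate 2 (adjusted p = 0.0646).

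The 3 genes higher in DRG were mlx (1.4, adjusted p = 0.00124), max (0.80, adjusted p = 0.00529) and hif1aa (0.54, adjusted p = 0.00605). The gene max encodes the common partner of Myc and Mxd proteins, and mlx its relative. With library sizes alone mlx lost the call (0.41, adjusted p = 0.0964), max was at -0.17 (adjusted p = 0.377) and hif1aa was lower in DRG (-0.42, adjusted p = 0.0465). With library sizes over nuclear genes mlx kept it (0.88), and max (0.29) and hif1aa (0.03) did not. The directions of max and hif1aa thus depended on the scaling.

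**Figure D5:**
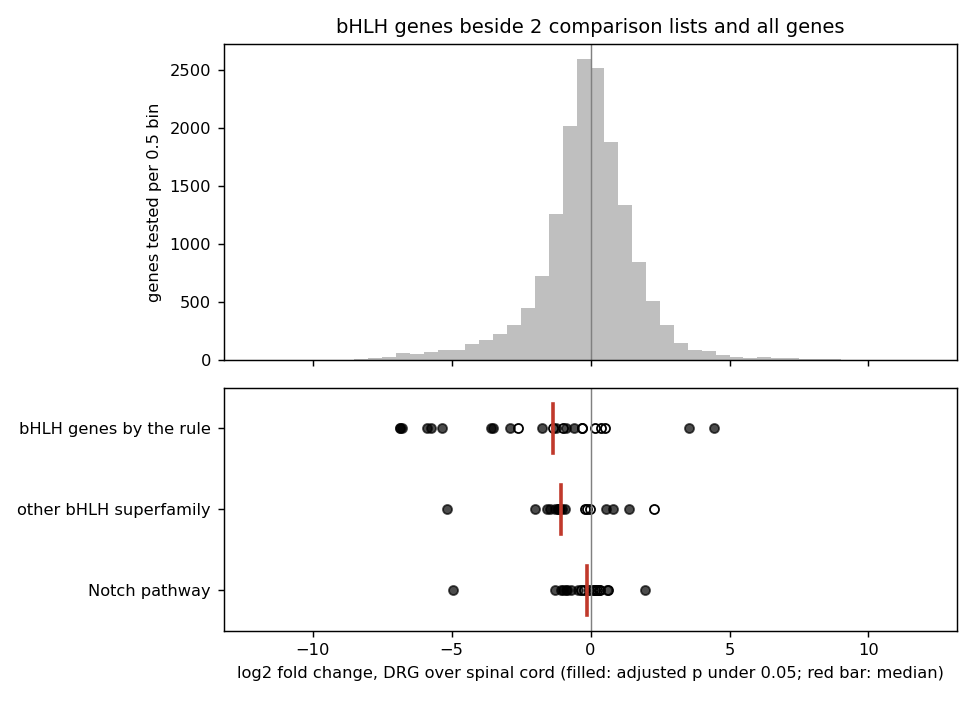
Upper panel, number of genes tested per bin of 0.5 in log2 ratio (DRG over spinal cord); lower panel, the 23 tested bHLH genes, 18 of the wider bHLH superfamily and 20 of the Notch pathway, filled where the adjusted p was under 0.05, with sim1a at its bound and a red bar at each median. Medians are -1.36, -1.06 and -0.14. The median of the 23 bHLH genes is in part set by which genes could be tested.

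With TMM scaling, 13 of the 32 genes had a mean of at least 1 CPM in DRG. In spinal cord 20 had such a mean. The same share of all genes was not counted, so these numbers are no measure of the family. The 13 in DRG were the Id and E-protein genes, hey1, hey2, her9, bhlhe40, neurod1, nhlh2, tcf15 and twist2.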

How the data were processed

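Per the labels, TRIzol RNA of each pool was made into stranded polyA libraries and read as paired ends. The authors deposited 1 table of raw counts per gene. The submitters' processing notes name Trimmomatic, HISAT2 2.2.0, SAMtools, featureCounts and edgeR 4.4; the genome build, the annotation and the strand setting of counting are not given in the sources used here. The 24 rows with no gene name (1.91% to 2.04% of DRG counts, 1.02% to 1.42% of spinal cord counts) were left out.

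Counts of all named genes were filtered (filterByExpr), scaled (TMM) and tested between tissues in edgeR 4.0.16 under R 4.3.3 with 3 libraries per tissue, with Benjamini-Hochberg adjustment over 16112 genes. SE is the absolute log2 fold change over the square root of F. Alternatives used limma 3.58.1, DESeq2 1.42.0, other scalings and filters, left-out libraries and a pool block; library sizes over nuclear genes were added after seeing the data. Intervals and floors (3 counts) cover counting error only. The p-values set the tissue difference against the spread between libraries of a tissue, with tissues unpaired except under the pool block.

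Every gene of the family could be named, with levels per library from a mean of 2 CPM in either tissue, and further where a result turned on counts. From the other lists, called genes of at least 10 CPM were named, up to 8 per direction by fold. The genes and lists were chosen with earlier results of these data known. The pool numbers pair the tissues by label; deviations of same-numbered libraries correlated at 0.48, -0.24 and -0.18 over 16112 genes. Of the 32 genes, bhlha15, id1, bhlhe41 and figla overlap another gene in RefSeq (assembly Leri_hhj_1), so their reads may not be separable.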

Additional observations from a re-analysis of the deposited data

How the results depend on the processing

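The calls of 14 of the 23 tested bHLH genes held under all 14 alternatives that gave them a value. The 2 higher in DRG became 2 to 4 when 1 library was left out. The 13 lower became 21 with library sizes alone, 17 with nuclear library sizes and 12 to 15 when 1 library was left out. Over all genes, fits without 1 library called 3661 to 4899 lower and 3734 to 4635 higher, against 4529 and 4473. Requiring at least 10 counts in every library left 11 of the genes. It removed both higher genes and 8 of the 13 lower ones before any test. The 0 higher and 6 lower that resulted thus show no lost call. The 5 lower genes that remained kept their call and nhlh2 joined them, while 4000 of 13523 genes were lower. With library sizes alone the Notch list gave 1 higher and 16 lower, and the wider bHLH list 0 higher and 15 lower; with nuclear library sizes the Notch list gave 1 and 13 and the wider list 1 and 13. With those scalings the median of all genes fell, and 15.5% and 28.1% of all calls were higher in DRG, against 49.7% with TMM. Log2 fold changes turned for id4 (-0.47 with library sizes alone, -0.0065 with nuclear library sizes), hey1 (-0.62 and -0.16) and id2a (-0.81 and -0.34, and -0.0786 to 0.36 when 1 library was left out, the lowest without DRG replicate 2). The replicate block by pool gave 2 higher and 14 lower bHLH genes and 8425 calls in all, against 9002; beyond nhlh2 it changed no bHLH call. Depth limits genes near 3 counts, such as neurog1 and ptf1a.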
